A study of Homo sapiens with 8 samples.

Results

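The genes described here are the DEAD and DEAH box RNA helicase genes of a Cas13d dropout screen, taken as every gene whose symbol is DDX or DHX followed by a number, apart from genes listed as non-essential controls. The rule found 17 genes of 1250 in the screen, 12 named DDX and 5 named DHX. They carried 189 of the 6735 splice junctions and 1368 of the 46829 guides. Each gene had between 20 and 164 guides, with a median of 72, and 139 of the 189 junctions had 8 guides. The guides were designed against splice junctions, the places in a mature mRNA where exons are joined, so each guide belongs to a junction and each junction to a gene. Guides of a junction share their target. Before any test between days all guides of a gene were averaged with equal weight, and no junction was tested between days. No guide sequence was used here, and guides are named by their junction and their number in the table.

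DEAD and DEAH box proteins are ATP-dependent enzymes that unwind or remodel RNA and RNA-protein complexes, and both families are named after a short motif of their ATPase core. In proliferating cells many DEAD box members work in the nucleolus on the assembly of ribosomal subunits, and several DEAH box members drive steps of pre-mRNA splicing and the release of its products. Many are needed for growth in cultured cells, while relatives in other pathways act on translation, mRNA turnover, or the assembly of small nuclear ribonucleoproteins.

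The screen was run in A375, a human melanoma cell line, with the genotype TetO-RfxCas13d, which is a doxycycline-inducible RfxCas13d, an enzyme that cuts RNA at the site its guide matches. The guide library was delivered by lentivirus, and guide abundance was measured in genomic DNA. The Day 0 cells had no doxycycline, and the Day 7, Day 14 and Day 21 cells had doxycycline at 1 ug/ml, with 2 replicates at each time. The table gives each guide's log2 fold change at Day 7, 14 or 21 against Day 0 of the same replicate, so a value of -1 is a halving of a guide's share, and all 3 later days share that Day 0 library. The labels do not say that the replicates were separate cultures. The p-values rest on the spread between these 2 replicates, which may be technical and which limma pools in part or in whole across features.

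All 8208 values of the helicase guides were present. The values behave as ratios of whole numbers with a constant for each library, and the smallest number that fits at Day 0 had a median of 93 over the helicase guides of replicate 1 and of 127 over those of replicate 2. These implied numbers are lower bounds on the reads, with any offset the authors added. By Day 21 an implied number of 1 was reached by 34 helicase guides in the first replicate and by 27 in the other, where loss can hardly be measured further. The median helicase guide was at -0.21 in replicate 1 and -0.18 in replicate 2 at Day 21. The same median was -0.36 and -0.30 over the 43874 guides of all genes with a GeCKO score (a gene score from an earlier genome-wide Cas9 knockout screen, listed in the table), and -0.038 and 0.00093 over the 963 non-targeting guides. Between the replicates at Day 21 the Pearson correlation was 0.49 across the 1368 single helicase guides and 0.74 across the means of the 189 junctions.

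Guides against 4 helicase genes were lost from the population, namely DHX9, DDX18, DDX51 and DDX21. DHX9 is RNA helicase A, which unwinds double-stranded RNA and RNA-DNA hybrids, and the others are nucleolar proteins of ribosome biogenesis. At Day 21 the mean log2 fold change over all guides of a gene was -1.37 for DHX9, -1.02 for DDX18, -0.96 for DDX51 and -0.87 for DDX21. None of the 17 genes passed the test at Day 7, and the 4 genes that passed at Day 14 were the same 4 that passed at Day 21. No helicase gene rose.

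The counts of genes called lower were close to those of the whole screen, whose tested genes include 394 listed as non-essential controls. A gene was called when its mean over guides differed from 0 at an adjusted p under 0.05 in limma, with Benjamini-Hochberg adjustment over all 1223 genes with at least 3 guides. At Day 21 the 4 helicase genes called lower were 23.5% of 17, against 20.8% of all genes. At Day 14 the same share of helicase genes stood against 22.1%, and at Day 7 the count of 0 stood against 3.92%, with 1 helicase gene at an unadjusted p under 0.05. All 17 genes have a GeCKO score. Over the 829 tested genes with such a score the shares called lower were higher, at 28.2% at Day 21, 29.4% at Day 14 and 5.43% at Day 7. No helicase gene was called higher at Day 21, where 0.654% of all genes were. At Day 21, 14 of the 17 helicase genes (82.4%) had a mean below 0 in both replicates, against 61.3% of all genes and 622 of the 829 genes with a GeCKO score. The median of the 17 gene means was -0.34 at Day 21, against -0.28 over all 1223 genes and -0.43 over the 829 genes with a GeCKO score. Set against the median non-targeting guide of the same library, the median helicase gene mean differed by -0.34 in replicate 1 and -0.32 in replicate 2 (mean -0.33 ± 0.014, SD, n = 2). This sets means over guides against a median of single guides. With the median of each gene's guides in place of the mean, the difference was -0.15 in replicate 1 and -0.096 in replicate 2.

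The calls depended on how guides were summarised and how the spread was estimated. With the median of a gene's guides in place of the mean, no helicase gene was called at Day 14 or Day 21, and with each library centred on the median of all guides DHX9 was called at Day 14 and none at Day 21. A fit of all days together, with the replicate as a block, called 8 genes lower at Day 14, where 38.3% of all genes were called. At Day 21 it called 9, where 45.5% of all genes were. The block takes the steady difference between replicates out of the spread, while the means tested against 0 still hold it. Its p-values against 0 thus leave out part of the spread between replicates and can be too small. They are given only to show how calls depend on the fit.

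Among the 10 ribosome biogenesis helicases, 3 of 10 were called lower at Day 21, and their median gene mean was -0.34. DDX18, a nucleolar helicase of large subunit assembly, averaged 0.015 (replicate 1) and -0.33 (replicate 2) at Day 7, then -0.77 and -1.04 at Day 14, and -0.99 and -1.05 at Day 21, values being given in this order of replicates throughout. Its Day 21 mean was -1.02 ± 0.042 (SD, n = 2; limma SE 0.14, adjusted p = 0.0245). Both replicates lay near 0 or a little below it at Day 7, and both Day 14 and Day 21 values lay below both Day 7 values.

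DDX51, which acts in the maturation of the large subunit rRNA, stood at -0.026 and -0.22 at Day 7, at -0.71 and -0.77 at Day 14, and at -0.87 and -1.05 at Day 21. The Day 21 mean was -0.96 ± 0.12 (SD, n = 2; limma SE 0.15, adjusted p = 0.0316). The replicates were close at every day, and the later days did not overlap Day 7. DDX21, a nucleolar helicase that links rRNA transcription with rRNA processing, stood at 0.054 and -0.38 at Day 7, at -0.62 and -0.78 at Day 14, and at -0.90 and -0.84 at Day 21, with a Day 21 mean of -0.87 ± 0.039 (SD, n = 2; limma SE 0.14, adjusted p = 0.0357). At Day 7 its replicates were further apart than at either later day.

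DDX10, a helicase of small subunit rRNA processing, was next in order and missed the threshold. Its guides averaged 0.019 and -0.14 at Day 7, -0.41 and -0.61 at Day 14, and -0.56 and -0.57 at Day 21 (limma adjusted p = 0.0779 at Day 21; adjusted p = 0.00459 with the replicate block). Its Day 14 and Day 21 values lay below both Day 7 values. The other ribosome biogenesis helicases did not pass the test at any day. DDX56, a nucleolar protein of large subunit assembly, averaged -0.43 ± 0.27 at Day 21 (limma adjusted p = 0.179; adjusted p = 0.0238 with the replicate block).

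DDX24, DDX49, DDX27 and DHX33, all linked to the nucleolus, averaged between -0.17 and -0.25 at Day 21. DDX24 was at -0.25 ± 0.43, with replicate 1 at 0.054 and replicate 2 at -0.55, so its replicates lay on opposite sides of 0. DDX49 was at -0.25 ± 0.0024, DDX27 at -0.24 ± 0.11, and DHX33, which had only 20 guides on 3 junctions, at -0.17 ± 0.0035 (SD, n = 2 for each). DDX55, a large subunit assembly helicase, was the flattest of this group. Its values were -0.0086 and 0.014 at Day 7, 0.032 and -0.033 at Day 14, and -0.080 and -0.0062 at Day 21, all within 0.1 of 0.

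None of the 3 splicing helicases was called lower at Day 21, and their median was -0.34. DHX8, the human counterpart of yeast Prp22, which releases spliced mRNA from the spliceosome, averaged -0.055 and -0.32 at Day 7, -0.39 and -0.49 at Day 14, and -0.44 and -0.48 at Day 21 (limma adjusted p = 0.114; adjusted p = 0.0103 with the replicate block). Its replicates were close at Day 14 and Day 21. DDX41, found in late spliceosomes and mutated in familial myeloid neoplasms, averaged -0.34 ± 0.033 (limma adjusted p = 0.19; adjusted p = 0.0236 with the replicate block). DHX15, the counterpart of yeast Prp43, which takes spent spliceosomes apart, averaged -0.038 and -0.017 at Day 7, -0.028 and -0.069 at Day 14, and 0.014 and -0.037 at Day 21. Its mean stayed within 0.1 of 0 at all 3 days, although its junctions spread widely, as described further on.

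The remaining helicases worked outside these pathways. DHX9 had the lowest mean of the 17 at every day, and ranked 147 of 1223 genes at Day 21. Its guides averaged -0.22 and -0.52 at Day 7, -1.15 and -1.20 at Day 14, and -1.41 and -1.33 at Day 21. The Day 21 mean was -1.37 ± 0.053 (SD, n = 2; limma SE 0.14, adjusted p = 0.0162), and at Day 14 the adjusted p was 0.00829. Both replicates were already below 0 at Day 7 (limma adjusted p = 0.21). DDX20, known as Gemin3 in the SMN complex that assembles small nuclear ribonucleoproteins, averaged -0.21 ± 0.24 at Day 21, with replicate 1 at -0.37 and replicate 2 at -0.040.

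In the group of translation and mRNA turnover, DDX6, which acts in translational repression and decapping, averaged -0.36 ± 0.071 (limma adjusted p = 0.175; adjusted p = 0.0253 with the replicate block). DHX36, which resolves G-quadruplex structures, had the highest mean of the 17. It stood at 0.083 and -0.013 at Day 7, at -0.055 and 0.083 at Day 14, and at -0.083 and 0.23 at Day 21. Its replicates lay on both sides of 0 at every day. Along the order of the Day 21 means, the steps between neighbours were smaller than or similar to the limma SE of 0.14 to 0.22, apart from the step from DHX9 to DDX18 and that from DDX21 to DDX10, so most neighbours cannot be ranked.

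The loss built up between Day 7 and Day 14. Guides of DHX9 fell by 0.80 between these days, DDX18 by 0.75, DDX51 by 0.62 and DDX21 by 0.54 (limma on the differences within a replicate, adjusted p = 0.00891, 0.0101, 0.0243 and 0.0498). These 4 were 23.5% of the helicase genes, against 21.1% of all genes lower at Day 14 than at Day 7. From Day 7 to Day 21 the same 4 genes fell by 0.995, 0.86, 0.84 and 0.70 (adjusted p = 0.00533, 0.0112, 0.0123 and 0.0384), where 23.5% of all genes were called lower. Between Day 14 and Day 21 no helicase gene passed the limma test, nor did any at an unadjusted p under 0.05, and 1.06% of all genes did. The Day 21 minus Day 14 difference was -0.19 for DHX9 and -0.22 for DDX51. None of these calls, from Day 7 to either later day, was kept with the median of the guides or with centring on all guides. Both DDX21 calls were also lost with centring on non-targeting guides and with implied Day 0 numbers of at least 50, and the one for Day 14 with the replicate block (adjusted p = 0.0822).

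All 17 genes carry a GeCKO score, from -1.68 for DDX21 to -0.86 for DDX51. The order of these scores had no visible relation to the Cas13d means at Day 21 (Spearman -0.0074 and Pearson 0.052 over the 17 genes, which share the same libraries). The table lists 14 of the genes as Cas13 essential and DDX27, DDX41 and DDX55 as Cas13 non-essential, by a criterion that is not given in the sources used here. All 4 genes called at Day 21 were among the 14, and the 3 listed as non-essential averaged -0.24, -0.34 and -0.043.

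Guides of related RNA-processing genes in the same libraries give a scale for these values. Of 42 spliceosome protein genes outside the helicase rule, 21 were called lower at Day 21, with a median gene mean of -0.89. The lowest were SF3B1, the branch-site binding subunit of the U2 particle, at -4.89 and SNRPF, a core Sm protein, at -4.25. Of 53 ribosome biogenesis genes outside the rule, 15 were called lower, with a median of -0.49, led by the rRNA methyltransferase FBL at -2.63 and WDR75 at -2.20. The ribosome biogenesis helicases, at 3 of 10, stood beside that share of 28.3%. The 4 RNA helicase genes of other names in the screen were all called lower, with a median of -1.65. These included SNRNP200, the Brr2 helicase of the U5 particle, at -2.63 and EIF4A3, the helicase of the exon junction complex, at -2.39. Of 12 measured G-patch proteins and other direct partners of these helicases, 4 were called lower, with a median of -0.44 and with SF3B1 and RBM17 (-1.34) lowest. The lists share members, such as SF3B1, and no difference between lists was tested.

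Some junctions of a gene differed from each other, at shares near those of all junctions in the screen, as given further on. Junctions were tested the same way, on the mean of at least 3 guides, with adjustment over all 6401 such junctions, and 180 helicase junctions qualified while 9 had fewer guides. At Day 21, 44 helicase junctions were called lower, 24.4% of 180 against 25.3% of all junctions, and 2 were called higher against 0.937%. At Day 14, 37 were called lower against 21.9%, and at Day 7 only 1 against 0.625%. At Day 21 limma gave every junction the same SE of 0.36, whatever its number of guides and however far apart its replicates were. A junction's p-value at that day thus follows from its mean alone. The DDX21 junction from 68960249, for example, was called lower at -0.29 and -1.85. By the same test 56 of 615 junctions of non-essential control genes were called lower (9.11%, with a median of 3 guides a junction). Single junction calls are read against that share. With the median of the guides 25 helicase junctions were called lower (13.9%, against 18.2% of all junctions).

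Junctions called lower were found in 14 of the 17 genes, DDX20, DDX55 and DHX33 having none. They made up 21 of the 48 tested junctions in the 4 genes called at Day 21 and 23 of the 132 in the other genes. As these 4 genes were called on the same guide values, their larger share of junctions called lower follows from the choice. Among helicase genes with at least 5 tested junctions, 13 of 15 held such a junction, against 71.1% of all 456 genes with that many. Among those not called as a whole it was 9 of 11, against 59.1% of 323 genes. To compare a junction with its own gene, its mean was set against the mean of the gene's guides on all other junctions, within each library. By this test 25 helicase junctions lay below the rest of their gene (13.9% of 180, against 12.0% of all junctions) and 18 lay above it (10.0%, against 9.92%). In non-essential control genes 10.7% lay below and 10.7% above, so the helicase shares were near both. With the median of the guides, 15 of the 180 helicase junctions differed from the rest of their gene, where 11.5% of all junctions did. Junctions on both sides occurred in 8 of the genes, and DHX9 held 7 of each.

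DHX9 lies on the forward strand of chromosome 1, with a RefSeq span in GRCh38.p14 from 182839347 to 182887982. Coordinates are those of the deposited table, whose build is hg38 per the submitters' processing notes, and all 189 helicase junctions lie within the RefSeq span of their gene. Junctions are numbered, and called first or last, from 5' to 3' among those in the screen, which need not be all junctions of a transcript. The lowest junction of DHX9, and of all helicase genes, was the 14th of 21 in transcript order, chr1:182876903-182878020. Its 7 guides averaged -1.83 and -2.13 at Day 7, -4.38 and -4.06 at Day 14, and -5.86 and -5.07 at Day 21. All 7 were at or below -1 in both replicates at Day 21, and it was the helicase junction called at Day 7 (limma adjusted p = 0.0155). At Day 21 the mean was -5.47 ± 0.56 (SD, n = 2; limma SE 0.36, adjusted p = 4.27e-49), and its difference from the rest of the gene was -4.28 (adjusted p = 2.19e-11).

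The next junction, the 15th, chr1:182878173-182879249, had the highest mean in the gene. Its 7 guides averaged 0.061 and -0.089 at Day 7, 0.030 and 0.64 at Day 14, and 0.31 and 1.10 at Day 21. No guide of it was at or below -1 in both replicates, and its Day 21 mean of 0.71 lay 2.17 above the rest of the gene (limma adjusted p = 1.73e-05). In the mature transcript these targets follow each other, one at the bottom and the other at the top of the gene's range.

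Low and near-zero junctions followed each other along the whole DHX9 transcript. Junctions 3 (chr1:182853418-182854029) and 4 (chr1:182858240-182858550) averaged -3.19 and -2.92 at Day 21, while junctions 2, 5 and 6 averaged -0.038, -0.031 and -0.080. Junction 11 averaged -2.40, junction 12 was at 0.33, and junction 13 was at -2.84. Toward the 3' end junction 16 averaged -2.66, junction 17 was at 0.56 and junction 18 (chr1:182881425-182881519) was at -3.67. Each of junctions 3, 4, 11, 13, 14, 16 and 18 was called below the rest of the gene, and each of 2, 5, 6, 9, 12, 15 and 17 above it. Position along the transcript showed no trend (Spearman -0.12 between transcript order and junction mean over the 21 junctions).

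The share of guide variance at Day 21 that lay between junctions, and not between guides of a junction, was 57.3% in DHX9. Without any junction effect its number of guides and junctions would give 12.3%. This ranked DHX9 as 7 of 465 genes with a GeCKO score and at least 5 junctions. The median share was 26.1% over the 16 helicase genes with that many junctions and 21.7% over the 465 genes. DDX56 followed at 42.5% and DDX51 at 36.4%, while DDX20, at 9.51%, was under the 11.6% that its layout gives without a junction effect.

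The other called genes also held a mix of low and flat junctions. The lowest junction of DDX51 was chr12:132139924-132140097, whose 8 guides averaged -0.26 and -0.50 at Day 7, -1.98 and -2.34 at Day 14, and -2.74 and -3.43 at Day 21. Its highest, chr12:132141020-132141274, averaged 0.33 and 0.19, 0.13 and 0.21, and 0.098 and 0.16 at the same days. They differed from the rest of the gene by -2.35 and 1.19 (limma adjusted p = 4.21e-06 and 0.0141). In both replicates the low junction separated from the flat one by Day 14.

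In DDX18 the extremes were adjacent junctions on chromosome 2. The 4th junction, chr2:117821750-117821861, averaged -0.29 and -0.75 at Day 7, -2.13 and -2.20 at Day 14, and -2.76 and -2.39 at Day 21. The 3rd, chr2:117821296-117821649, averaged 0.044 and -0.32, 0.34 and -0.23, and 0.46 and -0.38, with its replicates on both sides of 0 throughout. Their differences from the rest of DDX18 were -1.80 and 1.22 (limma adjusted p = 0.000233 and 0.013).

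In DDX21 on chromosome 10 the extremes were not adjacent. Its 6th junction, chr10:68969121-68970200, averaged 0.10 and -0.97 at Day 7, -1.44 and -2.26 at Day 14, and -2.33 and -2.40 at Day 21. Its 8th and last, chr10:68977688-68978841, averaged -0.096 and -0.050, -0.20 and -0.18, and 0.032 and 0.35. At the low junction the replicates differed at Day 7 and came together by Day 21. The junction between them, the 7th, averaged -1.97 and was also called below the rest of the gene.

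Single junctions of genes not called as a whole reached similar depths. In DHX8 the 15th of 17 junctions, chr17:43517322-43520129, averaged -0.70 and -1.32 at Day 7, -1.75 and -2.41 at Day 14, and -2.71 and -2.56 at Day 21, a mean of -2.63 whose difference from the rest of the gene was -2.32 (limma adjusted p = 4.68e-06). Its 12th, chr17:43508019-43508338, averaged -0.034 and -0.27, 0.47 and 0.089, and 0.60 and 0.45. Of the 17 DHX8 junctions 4 were called lower, although the gene mean was -0.46.

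DHX15 combined low and high junctions under a gene mean near 0. Its 1st junction, chr4:24576678-24584322, averaged -0.31 and -0.84 at Day 7, -1.17 and -2.23 at Day 14, and -1.71 and -2.35 at Day 21. Its 3rd, chr4:24556410-24570653, with 5 guides, averaged -0.24 and 0.81, 0.27 and 1.38, and 1.09 and 1.81, a Day 21 mean of 1.45 that was called higher (limma adjusted p = 0.000336). The 7th, chr4:24540948-24541872, was the other helicase junction called higher, at 1.18 and 0.71 (adjusted p = 0.0333). Only 2 of the 5 guides of the 3rd junction were above 0 in both replicates, so its mean rests on few guides, while 5 of the 7 guides of the 7th were.

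DDX56, DDX24 and DDX10 also had called junctions. In DDX56, chr7:44572744-44572889 averaged -0.31 and -0.70 at Day 7, -1.51 and -2.43 at Day 14, and -2.09 and -1.97 at Day 21. The last DDX56 junction, chr7:44566079-44566447, averaged 0.38 and 0.11, 0.25 and 0.22, and 0.84 and 0.36. Both differed from the rest of DDX56, by -1.75 and 1.17 (limma adjusted p = 0.000315 and 0.0185).

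In DDX24, chr14:94053127-94054995 averaged -0.067 and -0.35 at Day 7, -1.04 and -1.24 at Day 14, and -1.0 and -2.56 at Day 21, the replicates being far apart at the last day. Its highest junction, chr14:94060613-94060912, averaged 0.28 and -0.041, 0.47 and -0.13, and 0.71 and 0.41. In DDX10, chr11:108692038-108693515 averaged -0.21 and -0.17, -1.20 and -0.73, and -1.72 and -0.83, and the first junction, chr11:108673527-108675595, averaged 0.24 and 0.13, 0.44 and 0.14, and 0.70 and 0.51. The DDX10 gene mean came from 5 called junctions of 11, none of which stood below the rest of the gene by the test.

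DHX36 also had 1 called junction, and DDX6 had 2. In DHX36, chr3:154292694-154293747 averaged -0.22 and -0.78 at Day 7, -1.56 and -1.47 at Day 14, and -2.60 and -1.22 at Day 21, a difference of -2.09 from the rest of a gene with a mean above 0 (limma adjusted p = 3.95e-05). Its highest junction, chr3:154299925-154300593, averaged 0.23 and 0.097, 0.33 and 0.52, and 0.70 and 1.02. In DDX6, chr11:118755503-118756259 averaged 0.092 and -0.54, -0.45 and -0.76, and -1.15 and -1.25. The other called DDX6 junction, from 118756323 and with 4 guides, averaged -0.29 and -1.50 at Day 21. The first DDX6 junction, chr11:118781184-118786051, averaged -0.27 and 0.41, -0.086 and 0.46, and -0.17 and 0.88, with the replicates on opposite sides of 0 at each day. No DDX6 junction differed from the rest of its gene.

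The lowest junctions of DDX49 and DDX27 were called lower at Day 14 and at Day 21. In DDX49 the first junction, chr19:18921748-18921842, averaged -0.042 and -0.27 at Day 7, -0.63 and -1.44 at Day 14, and -1.34 and -1.35 at Day 21, and chr19:18927854-18927964 was highest, at 0.26 and 0.11, 0.29 and -0.13, and 0.51 and -0.014. In DDX27, chr20:49233709-49234934 averaged 0.063 and -0.31, -0.64 and -1.84, and -1.34 and -1.49, and chr20:49242206-49242593 was highest, at 0.034 and -0.59, 0.22 and -0.60, and 0.59 and 0.24. Both low junctions differed by -1.27 from the rest of their gene (limma adjusted p = 0.00861 and 0.00849), with their replicates unequal at Day 14 and level at Day 21. Of 8 guides each, 2 in DDX49 and 5 in DDX27 were below 0 in both replicates, and 2 in each were at or below -1. The lowest guides averaged -6.80 and -7.14, so both means lean on few guides. Of the 43 helicase junctions that differed from the rest of their gene, 28 lost that call with the median of the guides.

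In DDX20, DDX55 and DHX33 no junction was called at Day 21 by the separate fit. The lowest DDX20 junction, chr1:111762337-111762676, averaged -0.069 and -0.078 at Day 7, -0.52 and -0.32 at Day 14, and -0.74 and -0.94 at Day 21 (limma adjusted p = 0.0684; adjusted p = 0.0027 with the replicate block). The highest, chr1:111759568-111760473, averaged 0.28 and 0.11, 0.080 and 0.54, and -0.25 and 0.92. In DDX55, chr12:123610128-123613169 averaged 0.25 and -0.45, 0.074 and -0.78, and -0.15 and -1.30, and chr12:123619724-123619963, with 4 guides, averaged 0.30 and 0.044, 0.29 and 0.050, and 0.92 and 0.35. The 2 DDX55 junctions were called with the replicate block, lower and higher (adjusted p = 0.00645 and 0.0111). With that block the highest junctions of DDX10, DDX24, DDX56, DHX8, DHX9 and DHX36 were called higher too (adjusted p from 0.00258 for DHX36 to 0.022 for DHX8). All these junctions were picked as extremes of their genes, and the share of all junctions called with the block is not given here. With the block 66 of the 180 helicase junctions were called lower at Day 21, beside 44 in the separate fit. The block also raised the Day 21 calls over all genes, from 20.8% to 45.5%, and over all guides, from 11.1% to 19.3%. The junction counts with the block are thus not a result about the helicases. In DHX33, chr17:5450934-5453579 averaged -0.13 and -0.39, -0.19 and -0.70, and -0.41 and -0.37, and chr17:5448895-5450202 averaged -0.21 and -0.0083, -0.17 and 0.16, and -0.012 and 0.15. The 3 DHX33 junctions spanned only 0.46 at Day 21, the narrowest range among the 17 genes, where DHX9 spanned 6.18.

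The table gives each junction a category, and DDX41 and DDX55 were the helicases with junctions of more than 1 category. The 9 fully_unique DDX41 junctions averaged -0.29 and -0.31 at Day 21, its 3 partial_unique junctions -0.63 and -0.35, and its common junction -0.20 and -0.30. The lowest DDX41 junction, chr5:177512206-177512321, was fully_unique and averaged -0.10 and -0.12 at Day 7, -1.68 and -1.68 at Day 14, and -1.56 and -1.36 at Day 21, and the highest, chr5:177514837-177514915, also fully_unique, averaged 0.13 and 0.37, -0.053 and 0.28, and 0.22 and 0.47. In DDX55 the 2 fully_unique junctions averaged -0.0038 and 0.19 at Day 21, the 6 partial_unique junctions -0.21 and -0.12, and the common junction 0.92 and 0.35. The spread within the fully_unique category of DDX41 was thus wider than the distance between the categories of either gene, and differences between categories were not tested. The categories are named here as in the table, and their definition is not given in the sources used here.

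Among single guides, 126 of the 1368 helicase guides were called lower at Day 21 in limma, 9.21% against 11.1% of all guides, and 4 were called higher against 0.218%. At Day 14, 99 were called lower against 7.96%, and at Day 7, 20 against 2.1%. Of the 963 non-targeting guides 10 were called lower at Day 21, or 1.04%. With the replicate block 210 helicase guides were called lower, where 19.3% of all guides were. By a plain cut, 184 helicase guides (13.5%) were at -1 or lower in both replicates at Day 21, against 17.1% of all guides and 3.74% of the non-targeting guides.

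Of the 126 guides called lower, 73 were among the 368 guides of DHX9, DDX18, DDX51 and DDX21. The remaining 53 were among the 1000 guides of the other genes. DHX9, DDX18, DDX51 and DDX21 were called on the means of these same guides, so their larger share follows from the choice. Their shares of guides at -1 or lower, given next, come from the same values and are not separate evidence of loss. In DHX9 50 of 164 guides (30.5%) were at -1 or lower in both replicates. The corresponding shares were 24.1% in DDX51, 22.0% in DDX18, 17.4% in DDX56, 16.1% in DDX21 and 14.8% in DDX10. In DDX55 no guide of 61 was. The median guide of DHX9 stood at -0.85 and -0.76, above its mean in both replicates, and the median guide of DHX15 stood at 0.30 and 0.36 beside a gene mean of -0.012. In both genes the mean lay below the typical guide.

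The lowest guide of a gene was usually near the floor of detection. In DHX9 guide 2 of the 11th junction (chr1:182874954-182876049) went from -0.40 and -2.93 at Day 7 to -4.62 and -8.22 at Day 14 and -6.04 and -7.95 at Day 21, when it had implied numbers of 2 and 1. In DHX8 guide 5 of chr17:43508520-43513361 was the lowest of all helicase guides, with -1.28 and -3.64, -4.20 and -8.09, and -6.98 and -7.82. It fell from implied numbers of 132 and 206 at Day 0 to 1 in both replicates. In DDX27 guide 7 of its lowest junction stood at 0.19 and -0.97 at Day 7 and at -6.51 and -7.77 at Day 21, so a guide with no loss in replicate 1 at the first time was almost gone at the last. Besides these, 10 genes had a lowest guide between -5.18 and -6.89 at Day 21, all called lower, namely DDX6, DDX10, DDX18, DDX21, DDX24, DDX41, DDX49, DDX51, DHX15 and DHX36. The lowest guides of DDX56 and DDX20, at -4.66 and -4.00, were also called. Those of DDX55 and DHX33, at -1.72 and -2.34, were not (limma adjusted p = 0.254 and 0.0697; adjusted p = 0.0382 and 0.00917 with the replicate block).

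Several of the highest guides were carried by 1 replicate. In DHX36 guide 4 of chr3:154299925-154300593 was at 0.58 in replicate 1 and 5.05 in replicate 2 at Day 21 (mean 2.81, limma adjusted p = 0.035). In DDX20 guide 4 of chr1:111762782-111762905 was at 0.85 and 5.00 (adjusted p = 0.0243), while guide 3 of the same junction was at -3.26 and -4.74. Neighbouring guides on a single target thus held the highest and the lowest value of DDX20. Guide 4 of the 3rd DHX15 junction was high in both replicates, at 0.55 and 1.00 at Day 7, 2.22 and 1.90 at Day 14, and 4.15 and 2.91 at Day 21 (limma adjusted p = 0.00208), and was the highest of all helicase guides. It came from an implied Day 0 number of 31 in replicate 1, under the median of 93. In DHX8 the highest guide, on chr17:43507197-43507502, was at 0.79 and 4.33 and had an implied Day 0 number of 13 in replicate 2.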

How the data were processed

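The deposited table holds log2 fold changes for each guide, day and replicate, made by the authors against Day 0 of the same replicate. It also lists a GeCKO gene score as deposited, used only to describe genes. The submitters' processing notes name cutadapt 3.5, Bowtie 1.1.2 and hg38. How guides were counted, scaled and offset is not given in the sources used here, so depth is known only from the numbers the values imply. Guide values were averaged per junction and per gene (at least 3 guides) in each library. Means were tested against 0 with limma 3.58.1 in R 4.3.3, each day alone, with Benjamini-Hochberg adjustment over all genes, junctions or guides and a threshold of 0.05. Differences between days, and between a junction and its gene, were taken within a replicate first. SE is limma's. The script was tested on simulated data. The members, gene lists and tests were chosen with earlier results of these data known.

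Every member gene is named. Genes called at any day, and the 6 lowest and 3 highest by Day 21 mean, have all values given, as do the lowest and highest junction of each gene. Genes outside the rule are the lowest by Day 21 mean on each list. Single guides were taken from the lowest and highest of each gene. Gene spans come from RefSeq (GRCh38.p14). Same-numbered libraries are paired through their shared Day 0 library, and their deviations from the day mean correlated at 0.48 (Day 7 with 14), 0.41 (7 with 21) and 0.65 (14 with 21) over all guides. The alternatives were the median of guides, centring on non-targeting or on all guides, robust empirical Bayes, a fit of all days with and without the replicate block, an implied Day 0 number of at least 50, and leaving out each replicate.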

Additional observations from a re-analysis of the deposited data

Results flagged for a closer look

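The effects of DHX9, DDX18, DDX51 and DDX21 differed between time points by a test of the difference itself. From Day 7 to Day 14 the gene means changed by -0.80 for DHX9, -0.75 for DDX18, -0.62 for DDX51 and -0.54 for DDX21. From Day 7 to Day 21 they changed by -0.995 for DHX9, -0.86 for DDX18, -0.84 for DDX51 and -0.70 for DDX21. Both replicates moved the same way in each of these 8 differences. The Day 0 library cancels in each difference, which was taken within a replicate. Both the Day 7 to Day 14 and the Day 7 to Day 21 calls depended on the setting, as given with the processing.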

How the results depend on the processing

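With 2 replicates a day, leaving out a replicate leaves values with no test, so counts of calls could not be made. The median difference from non-targeting guides was -0.34 to -0.32 when either replicate was left out, and -0.12 with the median of the guides. With the median of the guides the genes called lower went from 4 to 0 at Day 14, at Day 21, and for Day 14 and Day 21 against Day 7. Junctions called lower at Day 21 went to 25 and junctions that differ from the rest of their gene to 15. Centring each library on all guides left 1 gene called at Day 14 (DHX9), 0 at Day 21 and 0 for Day 14 or Day 21 against Day 7. This centring moved the Day 21 values up by 0.33 and 0.28. A shared fit of all days called 8 genes at Day 14 and 9 at Day 21, with or without the replicate block, and with the block 210 guides. The block changed no other count by over 1.5 times. The cause of these changes was not tested, apart from the shift that centring makes by construction.

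Apart from values of a single replicate, 11 alternative values of the 17 gene means changed sign, all for genes not called. Robust empirical Bayes and the shared fits keep the means and could not change a sign. Centred on all guides, DDX20 was at 0.10, DDX24 at 0.059, DDX27 at 0.063, DDX49 at 0.059, DDX55 at 0.26, DHX15 at 0.30 and DHX33 at 0.14. With the median of the guides, DDX24 was at 0.0072, DDX49 at 0.076 and DHX15 at 0.33, and centred on non-targeting guides DHX15 was at 0.0068. With replicate 2 left out, DDX24 stood at 0.054, DHX15 at 0.014 and DHX36 at -0.083, each opposite in sign to its mean. Again apart from values of a single replicate, 8 junction values changed sign, all for junctions not called. Centred on all guides, the DHX9 junctions from 182843434, 182858894 and 182859117 were at 0.27, 0.28 and 0.23, and the DDX51 junctions from 132140199 and 132142878 at 0.30 and 0.26, the former also at 0.016 centred on non-targeting guides. With implied Day 0 numbers of at least 50, the DDX18 junction from 117821296 was at -0.0043 and the DHX9 junction from 182867043 at -0.35. In a single replicate other junctions not called changed sign too, such as the DDX20 junction from 111759568, at -0.25 in replicate 1. No named guide and no difference between a junction and its gene changed sign. None of 64 alternative day differences changed sign, and 21 lost their call. The 64 include 8 values for each replicate left out, which have no test and could not lose a call. DDX21 lost its calls from Day 7 to Day 14 and to Day 21 centred on non-targeting guides and with the Day 0 minimum.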
